A study of Mus musculus with 2 samples.

Results

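Genes that set entry into the cell cycle were followed through the neurogenic lineage of the adult mouse brain. The 10 genes were the CIP/KIP inhibitors Cdkn1a (p21), Cdkn1b (p27) and Cdkn1c (p57), the INK4 inhibitors Cdkn2c and Cdkn2d, the D cyclins Ccnd1, Ccnd2 and Ccnd3, and the kinases Cdk4 and Cdk6. They were taken by symbol and are 10 of the 27998 genes in the count table. All 10 had UMIs (molecular tags that count each captured transcript once) in the kept cells of each library, from 188 for Cdkn1c to 37157 for Ccnd2 in library 2.

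D cyclins bind Cdk4 or Cdk6, and the complexes phosphorylate the retinoblastoma proteins, which frees E2F factors to switch on genes of DNA replication. INK4 proteins bind Cdk4 and Cdk6 and keep the D cyclins off, whereas CIP/KIP proteins bind assembled cyclin and kinase complexes and act most strongly on those with CDK2. In the subventricular zone beside the lateral ventricles, quiescent astrocyte-like stem cells become activated, divide as transit amplifying progenitors and give rise to neuroblasts that leave for the olfactory bulb.

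The cells came from dissected lateral subventricular zone of male C57BL/6 mice aged 2 months, with tissue of 4 mice pooled, or 22 months, with tissue of 8 mice pooled. They were sorted for the glial glutamate transporter GLAST and against O4 (oligodendrocyte lineage), Ter119 (erythroid) and CD45 (leukocyte). In each case 8000 sort events went into droplet capture of transcript 3′ ends, giving 1 library per age. Each barcode carries the number of its library, but the labels do not say which age is which number. The text therefore speaks of library 1 and library 2, and no age was compared or inferred.

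Library 1 held 10440891 UMIs over 1849 barcodes and library 2 held 13330251 UMIs over 2088 barcodes, and 4 barcode sequences occurred in both. After filters 1825 and 2064 cells remained. Clusters were named from fixed markers, with the 10 genes kept out of the clustering. Other cell cycle genes stayed in, and the dividing class was named from such genes. Class differences of members that follow the cell cycle are therefore not independent of how the classes were made. Astrocyte-like cells (710 in library 1 and 594 in library 2) were not divided here into quiescent stem cells and niche astrocytes. The other classes were activated cells (485 and 581), dividing cells (232 and 481) and neuroblasts (278 and 308). Summed astrocyte-like markers stood at 36682 and 32781 CPM (UMI counts scaled to a total of 1000000) in the astrocyte-like class and at no more than 5222 CPM in the other 3. The activated class was less well marked, with summed activated markers at 6243 and 7160 CPM. The same markers summed to 3909 and 4090 CPM in astrocyte-like cells and 4352 and 4426 CPM in dividing cells. Median depth differed between classes, at 3527.5 and 3538.5 UMIs per cell in astrocyte-like cells against 10497.5 and 10081 in dividing cells. Oligodendrocytes passed the sort in library 1 (99 cells against 9), and the sum of their 10 markers in dividing cells was 657 CPM in library 1 against 67.8 CPM in library 2. The design has no replicate libraries, so no difference was tested. A level in CPM is a gene's summed UMIs in a class and library on that scale, and every range in brackets is an exact 95% interval for counting error only.

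Most of the 10 genes were low in astrocyte-like cells and high once cells were activated or dividing, inhibitors included. Activated cells had 7 of the 10 at least 2-fold above astrocyte-like cells in both libraries (Cdkn1a, Cdkn1c, Cdkn2c, Ccnd1, Ccnd2, Cdk4 and Cdk6), where 12.5% of all 10961 genes measured were as much higher. None of the 10 was 2-fold lower there, against 14.9% of genes. In dividing cells the same 7 and Cdkn2d were at least 2-fold above astrocyte-like cells, 8 of 10 against 16.1% of genes, and again none was 2-fold lower, against 20.9%. The median log2 ratio of the 10 in dividing over astrocyte-like cells was 2.30 in library 1 and 2.41 in library 2, and over all measured genes it was 0.00 and -0.01. In UMIs per cell, without scaling for depth, the median over all genes was itself 1.52 and 1.39, so the ratios here are relative to the depth of a class. Ccnd3 and Cdkn1b were the members that stayed within 2-fold in both steps.

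**Figure D1:**
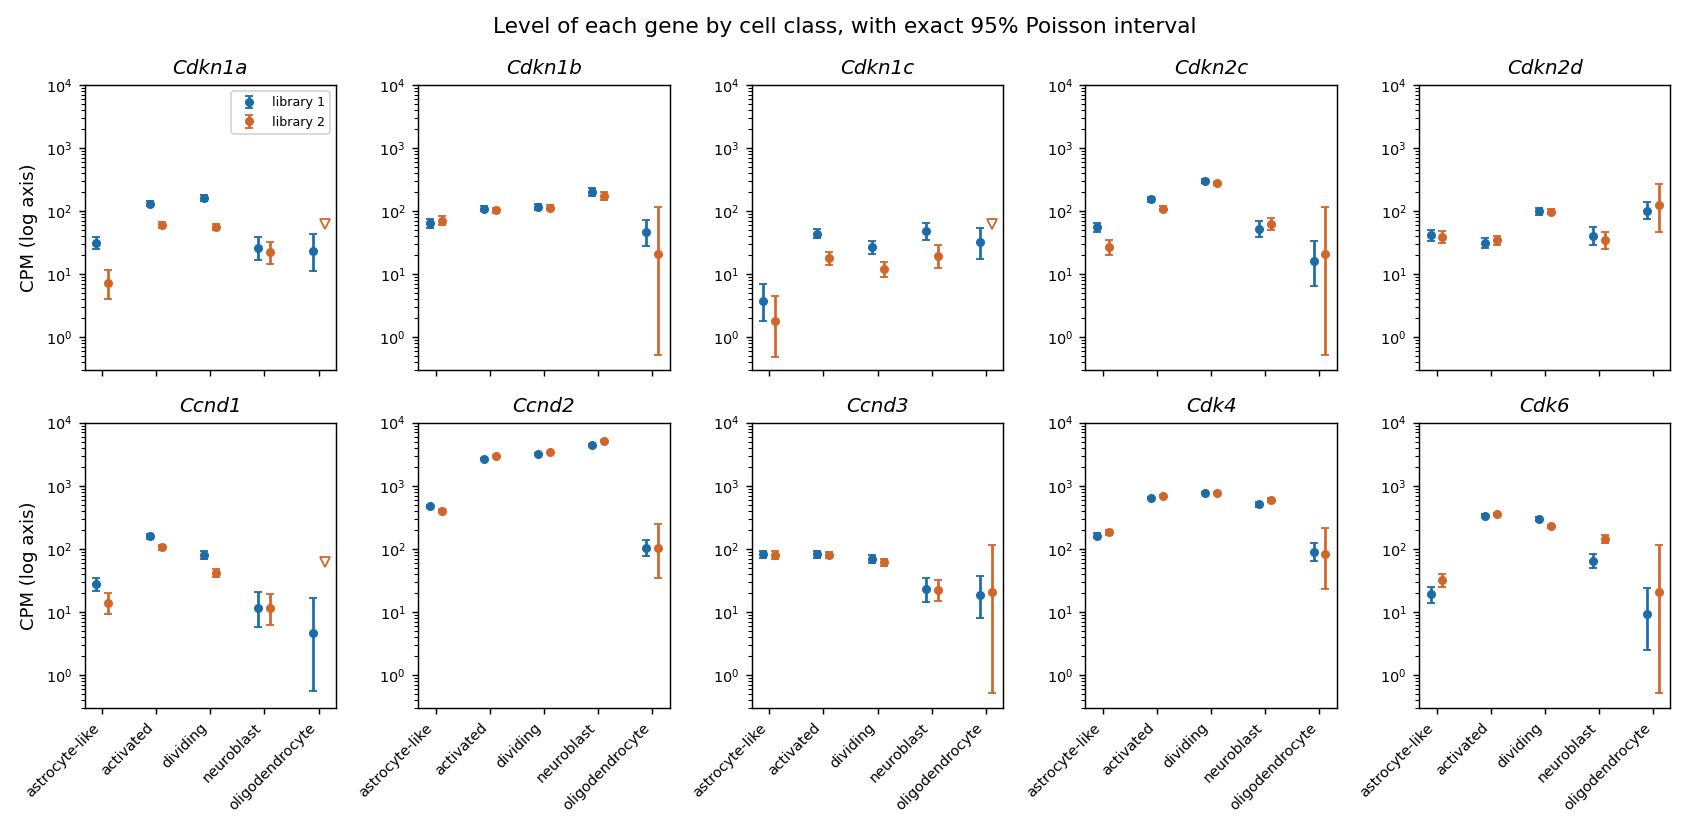
CPM (log axis) of each of the 10 genes in 4 lineage classes and in oligodendrocytes, with library 1 in blue, library 2 in orange, exact 95% Poisson intervals as bars and open triangles for the level that 3 counts would give where none was seen. Ccnd2 climbed from 476 and 399 CPM in astrocyte-like cells to 4484 and 5179.7 CPM in neuroblasts, while Ccnd3 was lowest in neuroblasts among the 4 lineage classes.

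Neuroblasts kept some of the 10 and lost others. Against astrocyte-like cells, 5 of 10 were at least 2-fold higher in both libraries (Cdkn1b, Cdkn1c, Ccnd2, Cdk4 and Cdk6), against 15.1% of genes, and Ccnd3 alone was 2-fold lower, against 22.1%. The 5 became 3 at clustering resolution 0.5 and 3 after each cell was thinned to 2000 UMIs. Set against dividing cells, 5 of 10 were at least 2-fold lower in neuroblasts (Cdkn1a, Cdkn2c, Cdkn2d, Ccnd1 and Ccnd3), where 8.77% of genes were, and none was 2-fold higher, against 6.59%. Cdkn1b, Cdkn1c and Ccnd2 were higher in neuroblasts than in dividing cells by a smaller factor in each library, Cdkn1c with an interval in library 2 that included 1 (1.64-fold, 0.976 to 2.69). Only 3 of the 10 stayed 2-fold lower in neuroblasts than in dividing cells when cells with under 1000 genes or over 5% mitochondrial UMIs were left out.

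**Figure D2:**
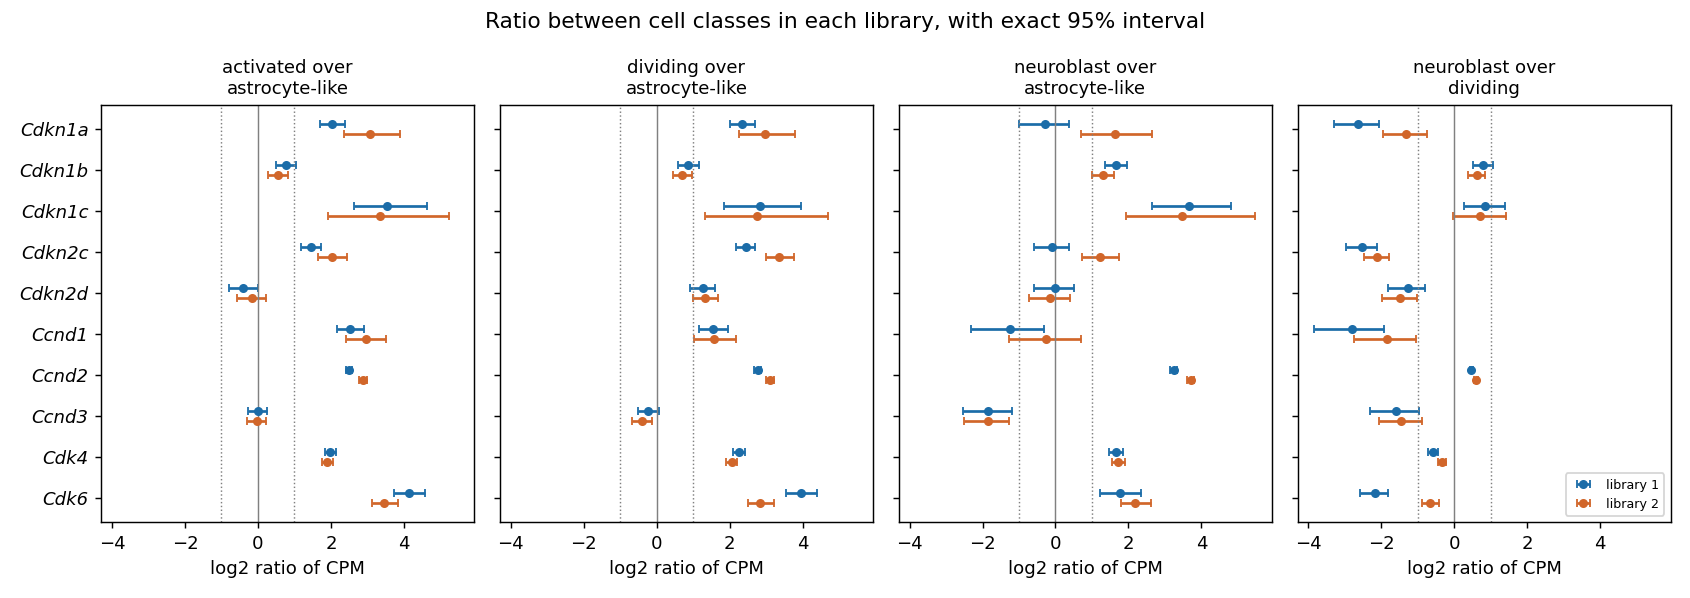
Log2 ratio of CPM between cell classes for each gene in library 1 (blue) and library 2 (orange), with exact 95% intervals; dotted lines mark 2-fold. In the panel of dividing over astrocyte-like cells 8 genes lie to the right of the 2-fold line in both libraries, and Ccnd3 lies left of 0.

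Cdkn1a, a p53 target that inhibits CDK2 complexes, was highest in activated and dividing cells, and of the 10 genes it differed most between libraries in astrocyte-like and dividing cells. It lies at chr17:29090976-29100727 on the plus strand (GRCm38). In library 1 it reached 31.8 CPM (25.4 to 39.4) in astrocyte-like, 130.2 CPM (119 to 142) in activated, 162 CPM (147 to 179) in dividing and 26.0 CPM (16.9 to 38.4) in neuroblast cells. Library 2 gave 7.14 CPM (4.08 to 11.6), 60.3 CPM (53.2 to 68.1), 56.0 CPM (49.5 to 63.1) and 22.3 CPM (14.7 to 32.4) in the same order. Activated and dividing cells were the high classes in both libraries, with intervals that overlapped each other in library 2 but not in library 1. Dividing cells exceeded astrocyte-like cells 5.09-fold (4.02 to 6.52) in library 1 and 7.84-fold (4.74 to 13.9) in library 2. Neuroblasts had 6.23-fold and 2.51-fold less than dividing cells. After thinning each cell to 2000 UMIs, Cdkn1a had a UMI in 19.6% of dividing cells of library 1 (unthinned 56.9%), 9.60% of those of library 2 (28.3%) and 3.26% of the library 1 oligodendrocytes (5.05%).

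Within the dividing class Cdkn1a was not even. Cluster 3, led by histone and S phase genes, held the highest level of any cluster of at least 30 cells in each library, at 212 and 94.8 CPM. In cluster 5, led by mitotic genes and the interneuron factors Sp9, Dlx5 and Dlx6, it fell to 70.7 and 27.7 CPM. Cluster 11, led by the mitotic genes Cdc20, Cenpa and Ccnb1, had 53.1 and 27.7 CPM, with 19 cells in library 1. The second highest was cluster 1 of the activated class, led by the early response genes Arc, Atf3 and Nr4a1, at 172 and 80.6 CPM. Across 28 pairs of a cluster and a library, the genes whose log2(CPM + 10) ran closest to Cdkn1a were Klf10 (Pearson r 0.826), a TGF-beta inducible factor, then Dnaja2 (0.822) and Etf1 (0.811). These pairs share 2 libraries and differ in depth, so such correlations are descriptions only.

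Cdkn1b, which restrains CDK2 and is held high in many resting and differentiating cells, was in CPM lowest in astrocyte-like cells and highest in neuroblasts. It lies at chr6:134920401-134925513 on the plus strand. Astrocyte-like cells had 64.1 CPM (54.8 to 74.5) and 70.5 CPM (59.96 to 82.4) in libraries 1 and 2, activated cells 109 and 103 CPM, dividing cells 117 and 114 CPM, and neuroblasts 202 CPM (175 to 233) and 174 CPM (152 to 199). Both libraries gave the same order of classes, in which activated and dividing cells overlapped each other, and the intervals of the libraries overlapped in every class. Neuroblasts exceeded astrocyte-like cells 3.16-fold (2.55 to 3.90) and 2.47-fold (2.00 to 3.06), and dividing cells 1.73-fold (1.44 to 2.09) and 1.53-fold (1.30 to 1.79). Without scaling for depth, dividing cells had the most Cdkn1b, 1.24 and 1.14 UMIs per cell. Activated cells had 0.819 and 0.768 and neuroblasts 0.698 and 0.685 UMIs per cell. Unlike Cdkn1a, Cdkn1b was higher in cluster 5 (201 and 175 CPM) than in the S phase cluster 3 (83.3 and 75.5 CPM). The other mitotic cluster, 11, had 60.7 and 81.9 CPM, so among dividing clusters the high level was particular to cluster 5. Activated cluster 7, led by Rpgrip1, Supt16 and Spry2, was second in both libraries at 204 and 184 CPM. Its closest genes over clusters were the kinase Braf (r 0.829), Wtap (0.815) and Gnb1 (0.806).

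Cdkn1c, an imprinted inhibitor that marks quiescence in several stem cell types, was the scarcest of the 10 and nearly missing from astrocyte-like cells. It lies at chr7:143458339-143461050 on the minus strand. Only 10 UMIs over 710 astrocyte-like cells were seen in library 1, 3.79 CPM (1.82 to 6.97), and 4 over 594 in library 2, 1.79 CPM (0.486 to 4.57). Activated cells had 44.0 and 18.0 CPM, dividing cells 26.8 and 12.1 CPM, and neuroblasts 47.9 CPM (35.1 to 63.9) and 19.8 CPM (12.7 to 29.5). Neuroblasts thus held 12.6-fold (6.29 to 28.1) and 11.1-fold (3.81 to 44.0) more than astrocyte-like cells, and their intervals overlapped those of activated cells. In UMIs per cell, activated cells had more Cdkn1c (0.330 and 0.134) than neuroblasts (0.165 and 0.0779). Intervals of the libraries did not overlap in activated, dividing or neuroblast cells, with library 1 the higher. Library 1 oligodendrocytes had 32.5 CPM (17.8 to 54.5) from 14 UMIs, within the range of the lineage classes. After thinning, 6.85% and 3.06% of neuroblasts had a Cdkn1c UMI, against 0.784% and 0.358% of astrocyte-like cells and 7.61% of library 1 oligodendrocytes. Whether the oligodendrocyte UMIs were their own or carried over was not tested. With so few UMIs, these shares do not say how many individual neuroblasts express the gene.

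Among all CIP/KIP UMIs, Cdkn1b held the majority in every lineage class of library 2, and in library 1 only in astrocyte-like cells and neuroblasts. Cdkn1b supplied 64.3% (58.1 to 70.1) in astrocyte-like cells of library 1 and 88.8% (83.2 to 93.0) in library 2. In activated cells Cdkn1a supplied 45.9% and Cdkn1b 38.5% in library 1, against 33.2% and 56.8% in library 2. In dividing cells of library 1 Cdkn1a had the larger share, 53.1% (49.4 to 56.7), whereas in library 2 Cdkn1b had 62.6% (59.3 to 65.8). Cdkn1b supplied 73.2% and 80.5% in neuroblasts. Each 3′ UMI stands for 1 transcript whatever its length, so these shares compare transcript counts and not length-scaled levels.

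Cdkn2c (p18), an INK4 inhibitor of Cdk4 and Cdk6, was the inhibitor with the most UMIs and peaked in dividing cells. It lies at chr4:109660876-109667189 on the minus strand. Astrocyte-like cells had 55.7 CPM (47.1 to 65.5) in library 1 and 26.8 CPM (20.4 to 34.5) in library 2, activated cells 153 and 109.7 CPM, dividing cells 302 CPM (281 to 324) and 275 CPM (260.2 to 290.1), and neuroblasts 52.1 and 62.8 CPM. Dividing cells stood apart from the other classes in each library. They exceeded astrocyte-like cells 5.42-fold (4.53 to 6.51) and 10.3-fold (7.92 to 13.5), and neuroblasts 5.80-fold (4.35 to 7.88) and 4.38-fold (3.47 to 5.59). Cluster 5 was highest, at 383 and 298 CPM, and the other mitotic cluster, 11, had 182 and 265 CPM. At 2000 UMIs per cell, 44.3% and 40.1% of dividing cells had a Cdkn2c UMI (86.2% and 85.7% unthinned), against 8.46% and 5.38% of astrocyte-like cells and 3.26% of library 1 oligodendrocytes. Over clusters its closest genes were Zcwpw1 (r 0.910), Hmgn5 (0.905) and Rangap1 (0.903).

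Cdkn2d (p19), the other INK4 inhibitor, was raised in dividing cells only among the 4 lineage classes. It lies at chr9:21288410-21291407 on the minus strand. Its levels were 41.3 and 38.8 CPM in astrocyte-like, 31.4 and 34.4 CPM in activated, 98.7 CPM (86.7 to 112) and 97.4 CPM (88.8 to 107) in dividing, and 40.6 and 34.7 CPM in neuroblast cells of libraries 1 and 2. The dividing class had no overlap with the others, and neuroblast intervals overlapped those of astrocyte-like and activated cells in both libraries. Dividing cells exceeded astrocyte-like cells 2.39-fold (1.90 to 3.02) and 2.51-fold (1.99 to 3.19). Cluster 5 again led, at 189.9 and 126 CPM, whereas the mitotic cluster 11 had 30.3 and 85.0 CPM, from 4 and 83 UMIs. Among clusters of at least 30 cells, oligodendrocytes came second in library 1, at 102 CPM (74.2 to 137) from 44 UMIs. The 9 oligodendrocytes of library 2 gave 125 CPM (46.0 to 273) from 6 UMIs. Jade1 (r 0.764) and the centrosome and cohesin protection genes Odf2 (0.751) and Sgol2a (0.727) followed it most closely.

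**Figure D3:**
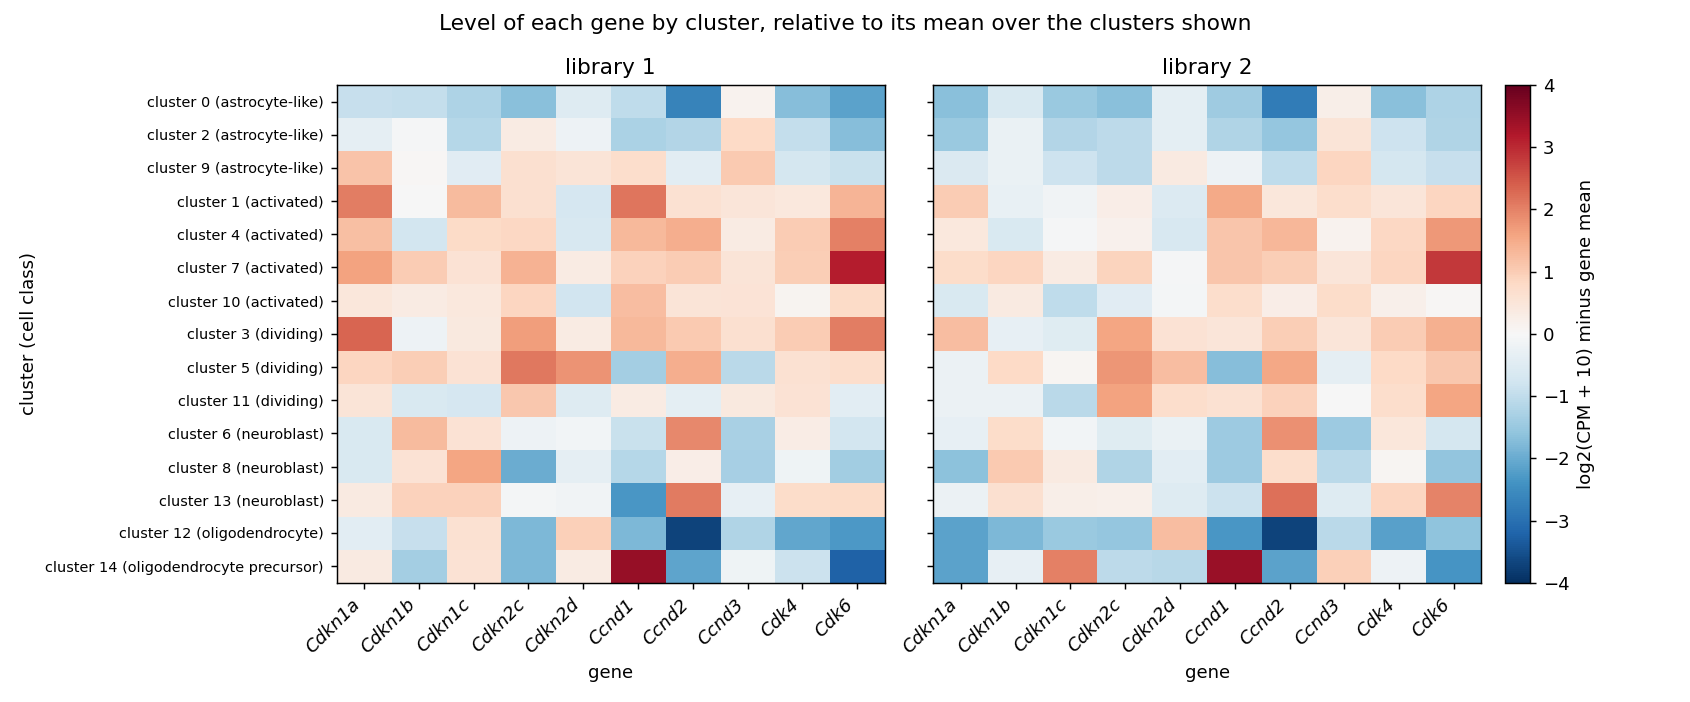
Log2(CPM + 10) of each gene in each cluster minus that gene's mean over the clusters shown, library 1 at left and library 2 at right; rows are clusters grouped by class, columns are genes, and the oligodendrocyte row of library 2 rests on 9 cells. Cluster 7 is the highest for Cdk6 (821 and 658 CPM), cluster 14 of oligodendrocyte precursors is the highest for Ccnd1 (556 and 548 CPM), and cluster 5 is above the mean for Cdkn2c, Cdkn2d and Ccnd2 but below it for Ccnd1 and Ccnd3.

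Ccnd1, the D cyclin most closely tied to growth factor signals in most cells, was highest in activated cells, lower in dividing cells and lowest in neuroblasts among the lineage classes. It lies at chr7:144929931-144939925 on the minus strand. Astrocyte-like cells had 27.3 CPM (21.4 to 34.4) and 13.8 CPM (9.40 to 19.6), activated cells 158 CPM (145 to 171) and 107 CPM (97.2 to 117), dividing cells 80.0 CPM (69.3 to 92.0) and 41.4 CPM (35.9 to 47.6), and neuroblasts 11.5 and 11.6 CPM from 11 and 14 UMIs. The activated and dividing classes stood apart from each other and from the rest, and in library 2 the intervals of astrocyte-like and neuroblast cells overlapped. Activated cells exceeded astrocyte-like cells 5.78-fold (4.52 to 7.49) and 7.71-fold (5.36 to 11.5), and dividing cells exceeded neuroblasts 6.99-fold (3.82 to 14.2) and 3.58-fold (2.08 to 6.67). Within dividing cells the S phase cluster 3 carried 114 and 61.2 CPM, and cluster 5 only 9.70 and 5.54 CPM, close to neuroblasts. The other mitotic cluster, 11, had 53.1 and 66.6 CPM, from 7 and 65 UMIs. Cluster 1, led by early response genes, was highest of the lineage clusters at 213 and 135 CPM. Lrrfip1 (r 0.884), Ncald (0.858) and Abce1 (0.847) ran closest to it.

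Ccnd2, the D cyclin known for its role in neural progenitors, had the most UMIs of the 10 in every lineage class and was higher at each step of the lineage. It lies at chr6:127125162-127152193 on the minus strand. Astrocyte-like cells had 476 CPM (450.5 to 504) and 399 CPM (373 to 426), activated cells 2694 and 2933 CPM, dividing cells 3233 and 3427 CPM, and neuroblasts 4484 CPM (4351 to 4619.7) and 5179.7 CPM (5052 to 5309.5). No intervals of neighbouring classes overlapped in either library. Neuroblasts exceeded astrocyte-like cells 9.41-fold (8.84 to 10.03) and 13-fold (12.1 to 14.0). Counted per cell, without scaling for depth, dividing cells led instead, with 34.3 and 34.2 UMIs per cell against 1.77 and 1.503 in astrocyte-like cells and 15.5 and 20.4 in neuroblasts.

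Neuroblasts had high Ccnd2 and were uneven among themselves. Cluster 13, led by Abracl, Cd24a and Dcx, had 6248 and 6737 CPM, cluster 6 had 5551 and 5272 CPM, and cluster 8, led by the neuronal genes Meg3, Runx1t1 and Foxp2, had 1759 and 2382 CPM. Summed dividing markers were 352 and 464 CPM in neuroblasts, against 4209 and 4719 CPM in dividing cells and 139 and 226 CPM in astrocyte-like cells. Those markers named the dividing class, so the gap between neuroblasts and dividing cells follows in part from the naming. Thinned to 2000 UMIs, 95.2% and 96.9% of neuroblasts and 45.3% and 46.6% of astrocyte-like cells had a Ccnd2 UMI, against 18.5% (11.1 to 27.9) of library 1 oligodendrocytes. The unthinned shares were 96.8%, 97.7%, 60.1%, 62.3% and 36.4%. Genes that ran close to Ccnd2 over clusters included Cdca7 (r 0.940) and Snrpe (0.938).

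Ccnd3, the remaining D cyclin, was lowest in neuroblasts, where Ccnd2 was highest. It lies at chr17:47505051-47599691 on the plus strand. Astrocyte-like cells had 81.9 CPM (71.3 to 93.5) and 80.8 CPM (69.4 to 93.5), activated cells 81.4 and 78.8 CPM, dividing cells 69.9 and 60.8 CPM, and neuroblasts 22.9 CPM (14.4 to 34.7) and 22.3 CPM (14.7 to 32.4). Astrocyte-like, activated and dividing cells lay close together, dividing cells below the other 2 without overlap of intervals in library 2, and neuroblasts stood apart below all 3. Astrocyte-like cells exceeded neuroblasts 3.57-fold (2.30 to 5.82) and 3.62-fold (2.41 to 5.65). In UMIs per cell Ccnd3 was higher in dividing cells (0.741 and 0.607) than in astrocyte-like cells (0.304 and 0.305), and still lowest in neuroblasts (0.0791 and 0.0877). Its closest genes were Zfp36l1 (r 0.940), an RNA-binding protein of mRNA decay, the radial glial lipid binding gene Fabp7 (0.912) and Zfp36l2 (0.901).

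The mix of D cyclin transcripts was narrower at each later step of the lineage. Ccnd2 made up 81.4% (79.3 to 83.3) and 80.8% (78.4 to 83.1) of D cyclin UMIs in astrocyte-like cells, 91.8% and 94.1% in activated cells, 95.6% and 97.1% in dividing cells, and 99.2% and 99.4% in neuroblasts. Ccnd3 was the second D cyclin of astrocyte-like cells, at 14.0% (12.3 to 15.8) and 16.4% (14.2 to 18.7). Ccnd1 took second place in activated cells, at 5.38% (4.95 to 5.82) and 3.42% (3.12 to 3.74).

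Cdk4, which had more UMIs than its relative Cdk6 in every lineage class, was lowest in astrocyte-like cells and highest in dividing cells. It lies at chr10:127063534-127067920 on the plus strand. Astrocyte-like cells had 161 CPM (146 to 177) and 183 CPM (165 to 201), activated cells 636 and 684 CPM, dividing cells 766 CPM (732 to 802) and 759.9 CPM (735 to 785), and neuroblasts 510.5 CPM (466 to 558) and 600.4 CPM (558 to 646). The classes stood apart from their neighbours in both libraries, in one order. Dividing cells exceeded astrocyte-like cells 4.76-fold (4.28 to 5.30) and 4.16-fold (3.76 to 4.62). Smarcc1 (r 0.973), a chromatin remodeller subunit, Snrpg (0.972) and Erh (0.967) ran closest to Cdk4. Tspan31, which overlaps Cdk4 on the opposite strand, had 945 and 1124 UMIs of its own.

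Cdk6, which can take the place of Cdk4 beside the D cyclins, was high in activated and dividing cells and lowest in astrocyte-like cells among the lineage classes. It lies at chr5:3341485-3531008 on the plus strand. Astrocyte-like cells had 19.0 CPM (14.1 to 25.0) and 31.7 CPM (24.8 to 40.0), activated cells 333 CPM (315 to 353) and 350.04 CPM (333 to 368), dividing cells 293 and 227 CPM, and neuroblasts 64.6 CPM (49.5 to 82.8) and 145 CPM (124 to 168). Activated and dividing cells overlapped in library 1, and activated cells were the higher in library 2. Activated cells exceeded astrocyte-like cells 17.6-fold (13.3 to 23.8) and 11.05-fold (8.70 to 14.2). Cdk6 made up 10.5% and 14.8% of Cdk4 and Cdk6 UMIs together in astrocyte-like cells, 34.4% and 33.9% in activated cells, 27.7% and 23.0% in dividing cells and 11.2% and 19.4% in neuroblasts. The excess of neuroblasts over astrocyte-like cells (3.41-fold and 4.56-fold) depended on the clusters: at resolution 0.5 the log2 ratio in library 1 was -0.19, against 1.77 as reported.

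Cluster 7 gave 446 of the 1211 activated UMIs of library 1 and 788 of the 1515 of library 2, at 821 and 658 CPM, more than any other cluster. That cluster (70 and 147 cells) carried the activated name on the least evidence, from 3 markers past 1.5-fold. For Cdk6, the log2 ratio of activated over astrocyte-like cells was 3.71 and 2.87 without cluster 7, against 4.14 and 3.47 with it. The ratio of dividing over astrocyte-like cells was 3.95 and 2.84, so without cluster 7 activated cells were below dividing cells in library 1 and level with them in library 2. The next highest were cluster 3 in library 1 (379 CPM) and neuroblast cluster 13 in library 2 (363 CPM). The genes nearest Cdk6 over clusters were Odc1, the first enzyme of polyamine synthesis (r 0.944), the factor E2f1 (0.944) and Ranbp1 (0.929).

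Stretches of the windows before a start site of both kinases are shown. Both genes were raised in activated and dividing cells, and both windows hold CACGTG, the palindrome bound by Myc and related factors. Of the 10 genes, 7 had an entry in the RefSeq promoter table (GRCm38.p6), and the 250 bases before each start were searched on both strands. Capitals mark CACGTG, and both sequences read 5′ to 3′ on the plus strand and end before the first exon base of the gene in the GENCODE annotation that lies in the window.
Cdk4, chr10:127063285-127063533: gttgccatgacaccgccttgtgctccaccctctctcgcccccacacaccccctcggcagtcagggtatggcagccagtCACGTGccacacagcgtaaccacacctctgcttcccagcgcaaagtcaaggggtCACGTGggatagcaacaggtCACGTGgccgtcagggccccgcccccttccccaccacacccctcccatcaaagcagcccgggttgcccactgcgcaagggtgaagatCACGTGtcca
Cdk6, chr5:3343643-3343731: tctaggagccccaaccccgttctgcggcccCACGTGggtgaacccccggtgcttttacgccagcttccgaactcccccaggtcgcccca
Cdk4 has CACGTG 4 times, beginning 172, 118, 98 and 11 bases before the start, and Cdk6 has it once, 220 bases before. The Cdk6 window lies inside the span of the gene given above, and only its first 89 bases are printed. No window of Cdkn1a, Cdkn1b, Cdkn2c, Cdkn2d or Ccnd3 held CACGTG, although Cdkn1a, Cdkn2c and Cdkn2d were also raised in dividing cells. Among 32851 windows of the same length 6.02% held CACGTG at least once, and 7 windows (0.0213%) held it 4 or more times. A core E2F sequence (TTCCCGC or TTGGCGC or TTGCCGC or TTCGCGC), present in 7.89% of windows, was found in 1 window of the members, 25 bases before a start of Cdkn2c. That window lies within an annotated exon of Cdkn2c and is not printed. The GC box GGGCGG, held by 32.7% of all windows, was in windows of Cdkn1a, Cdkn1b, Cdkn2c, Cdkn2d, Ccnd3 and Cdk4, and TATAAA, held by 12.4%, in that of Cdk6. A match describes letters in a window and not a bound site, and the absence of one says nothing of a factor.

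Levels differed between the libraries for a few members. With 1.5-fold as the limit, 4 of the 9 members with enough UMIs differed in astrocyte-like cells, where 16.6% of all genes did. Cdkn1a, Cdkn2c and Ccnd1 were lower in library 2, against 8.28% of genes, and Cdk6 was higher, against 8.32%. Activated cells had 2 of 10 (Cdkn1a and Cdkn1c, both lower in library 2), against 17% of genes, dividing cells 3 of 10 (Cdkn1a, Cdkn1c and Ccnd1, all lower), against 13.1% either way and 7.52% lower, and neuroblasts 2 of 10 (Cdkn1c lower, Cdk6 higher), against 17.8%. In activated cells and neuroblasts those counts are near the share of all genes, but without cluster 7 the activated count was 4 of 10. Cdkn1b, Cdkn2d, Ccnd2, Ccnd3 and Cdk4 were within 1.5-fold in every class.

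Cdkn1a was 4.46-fold (2.59 to 8.15) higher in library 1 than in library 2 in astrocyte-like cells, 2.16-fold (1.85 to 2.52) in activated cells and 2.90-fold (2.48 to 3.39) in dividing cells. In neuroblasts the ratio was 1.17 (0.650 to 2.09), so no difference was detectable there at this depth. For Cdkn1c the ratio was 2.44 (1.85 to 3.24) in activated, 2.22 (1.54 to 3.22) in dividing and 2.42 (1.45 to 4.14) in neuroblast cells. Ccnd1 was 1.97-fold (1.28 to 3.11), 1.48-fold (1.30 to 1.67) and 1.93-fold (1.58 to 2.37) higher in library 1 in astrocyte-like, activated and dividing cells. Cdkn2c was 2.08-fold (1.53 to 2.86) higher in library 1 in astrocyte-like cells, 1.39-fold (1.23 to 1.58) in activated cells and 1.10-fold (1.00 to 1.20) in dividing cells. Among astrocyte-like clusters it was level in cluster 0, the largest, at 1.00-fold (0.550 to 1.88). In clusters 2 and 9 it was 3.05-fold (1.83 to 5.12) and 3.89-fold (2.11 to 7.85) higher in library 1.

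The clusters that fill a class differed between libraries, so the same ratios were taken within clusters. The largest activated cluster was cluster 1 in library 1 (234 of 485 cells) and cluster 4 in library 2 (220 of 581). Dividing cells held 127 of cluster 3, 86 of cluster 5 and 19 of cluster 11 in library 1, and 190, 197 and 94 in library 2. Cluster 9, led by Socs3 and Junb, made up 108 of 710 astrocyte-like cells in library 1 and 73 of 594 in library 2. It held 78 of 147 astrocyte-like Cdkn2c UMIs in library 1 and 12 of 60 in library 2. For Cdkn1a it held 52 of 84 and 7 of 16, and for Ccnd1 43 of 72 and 12 of 31. Cdkn1a was higher in library 1 in 10 of 11 clusters with at least 20 UMIs, 8 of them with an interval above 1. Cdkn1c was higher in library 1 in 7 of 7 clusters (4 above 1), Cdkn2c in 10 of 12 (7 above 1) and Ccnd1 in 6 of 8 (3 above 1). Cdk4 was higher in library 2 in 10 of 13 clusters and in library 1 in 3, with 1 interval clear of 1 in each direction.

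Early response genes, which tissue dissociation is known to induce, also differed between libraries. The summed level of 12 of them, chosen after the libraries had been compared, was 7014 against 5104 CPM in astrocyte-like, 6834 against 5421 in activated, 4132 against 3212 in dividing and 1399 against 997 in neuroblast cells of libraries 1 and 2. Of the 11 clusters above, 4 had the higher early gene sum in library 2 (clusters 0, 1, 3 and 10), and Cdkn1a was higher in library 1 in all 4 of them. The sums of libraries 1 and 2 were close in cluster 3 (5424 against 5502 CPM) and cluster 10 (3280 against 3315 CPM). In cluster 1 the sum was 10119.5 CPM in library 1 and 11552 CPM in library 2, and Cdkn1a 172 against 80.6 CPM. Cluster 9 had both higher in library 1, the sum at 27244 against 23212 CPM and Cdkn1a at 87.8 against 19.7 CPM. Whether the early response was linked to the Cdkn1a difference was not tested. Without clusters 1 and 9, led by such genes, 2 members rather than 4 passed 1.5-fold between libraries in astrocyte-like cells. Oligodendrocyte markers were also higher in library 1 in each lineage class, and their part in these results was not tested. Cdkn1a itself in library 1 oligodendrocytes was 23.2 CPM (11.1 to 42.7), an interval that overlapped those of astrocyte-like cells (31.8 CPM, 25.4 to 39.4) and neuroblasts (26.0 CPM, 16.9 to 38.4). Activated and dividing cells of that library were higher, at 130.2 and 162 CPM.

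**Figure D4:**
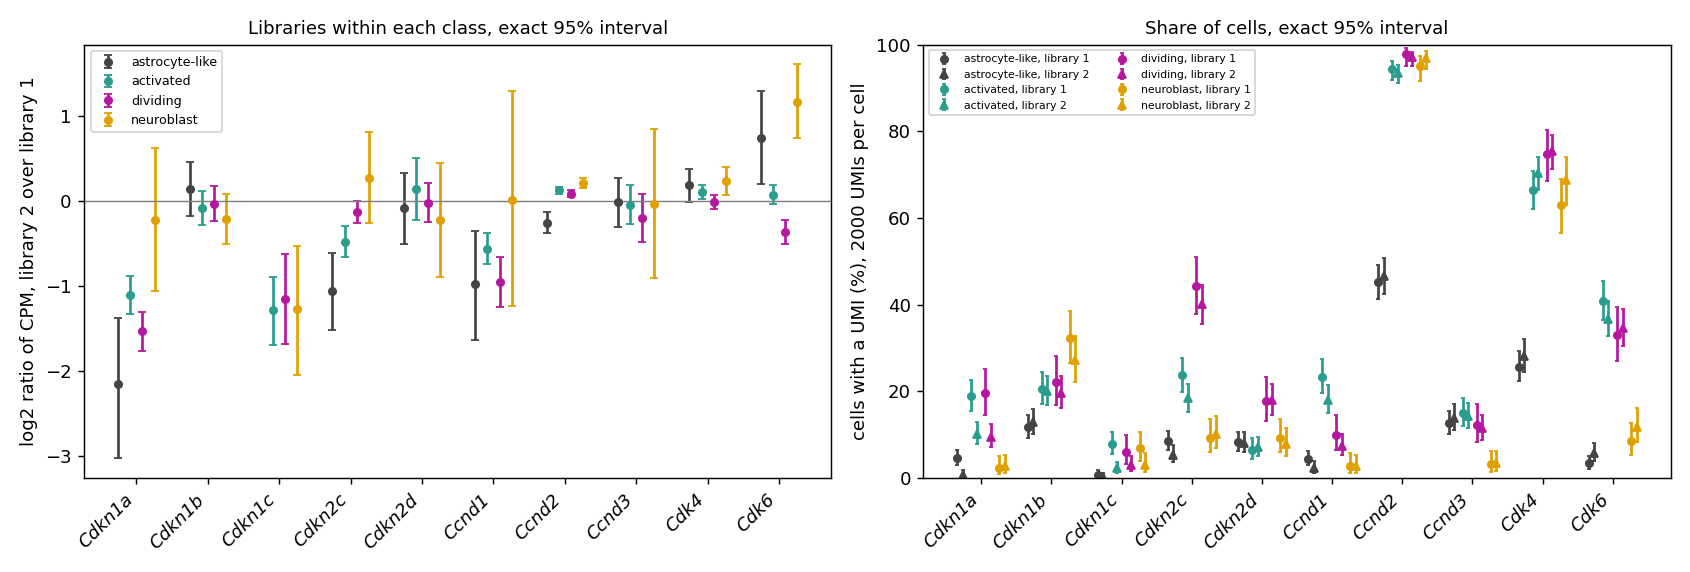
At left, log2 ratio of CPM in library 2 over library 1 for each gene and class with exact 95% intervals, in which Cdkn1a lies below 0 in astrocyte-like, activated and dividing cells and Cdk6 above 0 in astrocyte-like cells and neuroblasts. At right, percent of cells with a UMI after thinning to 2000 UMIs per cell, with exact intervals, in which Ccnd2 is at least 93.4% in activated, dividing and neuroblast cells and is 45.3% and 46.6% in astrocyte-like cells.

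Cdk6 differed between libraries in both directions, depending on the class and the cluster. It was 1.67-fold (1.15 to 2.45) higher in library 2 in astrocyte-like cells and 2.24-fold (1.67 to 3.04) in neuroblasts, 1.05-fold (0.973 to 1.13) in activated cells, and 0.774-fold (0.704 to 0.852), hence lower, in dividing cells. Cluster 13 held most of the neuroblast Cdk6 in library 2, with 142 of 175 UMIs, and 35 of 62 in library 1. Class and cluster values differed for Cdk6. It was higher in library 1 in all 4 activated clusters, by 1.45-fold (1.22 to 1.73), 1.20-fold (1.03 to 1.40), 1.25-fold (1.11 to 1.40) and 1.71-fold (1.07 to 2.84) in clusters 1, 4, 7 and 10, although the activated class as a whole was level. Among dividing cells it was higher in library 1 in cluster 3 (379 against 241 CPM) but higher in library 2 in cluster 5 (144 against 187 CPM) and cluster 11 (60.7 against 272 CPM). Of 12 clusters with at least 20 UMIs, 6 had more Cdk6 in library 1 (5 with an interval clear of 1) and 6 in library 2 (4 clear of 1). In neuroblast clusters 6 and 8 Cdk6 was at 46.1 against 48.1 CPM and 25.5 against 21.1 CPM. The astrocyte-like difference turned the other way when cells with under 1000 genes or over 5% mitochondrial UMIs were left out (log2 ratio -0.32), when marked doublets were kept (-0.20) and at clustering resolution 0.5 (-0.17), against 0.74 as reported.

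Around the 10 genes, genes that act downstream of the D cyclin kinases were also higher in dividing cells. These lists were chosen with earlier results of the same cells known, and counts are of genes at least 2-fold apart between dividing and astrocyte-like cells in both libraries, to be read beside 16.1% of all genes higher and 20.9% lower. All 20 E2F target genes of S phase were higher, with a median log2 ratio of 2.89 and 2.67. All 20 were also at least 2-fold higher in activated than in astrocyte-like cells in both libraries, against 12.5% of genes. The dividing class was named from other cell cycle genes, so higher cell cycle genes in these lists are not independent of the naming. Rrm2, a subunit of ribonucleotide reductase, stood at 18.2 and 37.0 CPM in astrocyte-like and 489.6 and 440.1 CPM in dividing cells, and Cdc6, which loads the replicative helicase, at 1.52 and 2.68 against 36.2 and 27.3 CPM. The smallest ratios of that list were those of Prim1 (4.31 and 3.04) and Rpa2 (3.55 and 2.86).

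Retinoblastoma family and E2F genes were higher in 7 of 12 and lower in none. E2f2, an activating E2F, was at 0.758 and 6.25 against 38.2 and 32.5 CPM, and the retinoblastoma relative Rbl1 at 3.03 and 2.68 against 43.1 and 42.2 CPM. Rbl2, the retinoblastoma relative of resting cells, was 20.1 and 16.1 CPM in astrocyte-like cells and 14.2 and 9.15 CPM in dividing cells, within 2-fold, as was E2f6 at 18.6 and 16.5 against 16.7 and 14.4 CPM. Cyclin E, cyclin A and CDK2 genes were higher in 5 of 8. Ccna2 was at 10.2 and 14.7 against 277 and 285 CPM and Ccne2 at 2.65 and 3.12 against 52.4 and 45.2 CPM, while Mnat1 and Ccnh of the CDK-activating kinase had ratios of 1.02 and 1.29 and of 0.692 and 0.864.

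In a list of ubiquitin ligase parts, among them ones that turn over CIP/KIP proteins, 3 of 11 were higher and none was lower. Dtl, which directs p21 to a ubiquitin ligase in S phase, was at 7.96 and 11.2 against 134 and 171 CPM, and Cks1b, the partner of Skp2 in p27 turnover, at 29.6 and 44.2 against 439 and 442 CPM. Ddb1 and Fbxo31 of the same list were within 2-fold, with ratios of 0.963 and 0.883 and of 0.887 and 0.766. Cdkn1a and Dtl transcripts were both high in dividing cells, and protein was not measured.

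The p53 list gave 4 of 15 higher and 1 lower, with medians of 0.50 and 0.54 on the log2 scale. Rps27l stood at 216 and 262 against 718 and 670.2 CPM and Sesn2 at 6.44 and 6.25 against 16.3 and 19.4 CPM, whereas Sesn1 was at 47.0 and 46.9 against 16.7 and 17.3 CPM and Phlda3 at 23.1 and 22.3 against 12.2 and 7.91 CPM. In the list of FoxO, Smad, Myc and bHLH regulators 4 of 18 were higher and 5 lower. Mxd3, a Myc antagonist of S phase, was at 6.44 and 7.14 against 106 and 99.2 CPM, and Foxo6 at 0.758 and 1.79 against 9.35 and 7.70 CPM. Id2 and Id3, inhibitors of bHLH factors downstream of BMP, were at 1007 and 822 against 94.3 and 73.0 CPM and at 918 and 803 against 53.6 and 30.6 CPM.

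Among 3 other genes whose products bind or act on CDKs (Cdkn3, Cables1 and Cables2), 1 was higher and 1 lower. Cdkn3, a phosphatase that acts on CDK2, was at 0.758 and 2.23 against 21.9 and 36.6 CPM, Cables2 at 3.79 and 6.70 against 10.2 and 12.3 CPM, and Cables1 at 49.7 and 18.7 against 1.63 and 1.87 CPM. Cdkn2a and Cdkn2b, the remaining INK4 genes, had only 19 and 38 and 23 and 24 UMIs over all kept cells. Of the other cyclins 6 of 12 were higher, Ccnf (0.758 and 0.893 against 30.1 and 27.3 CPM) and the mitotic cyclin Ccnb2 (1.90 and 4.46 against 64.2 and 96.1 CPM) the most, and Ccnl2 and Ccnt2 of transcription the least, with ratios of 0.706 and 0.974 and of 0.844 and 0.802. One gene of that list, Ccnb1, was itself a marker of dividing cells. An astrocyte-like level below 1.14 CPM in library 1 or 1.34 CPM in library 2 rests on fewer than 3 UMIs. That holds for Ccnf in both libraries and for E2f2, Cdkn3 and Foxo6 in library 1, so the size of their rise is uncertain.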

How the data were processed

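Transcript 3′ ends of GLAST-sorted cells were counted in 2 libraries, 1 per age. The authors deposited raw UMI counts per gene and barcode. Per the submitters' processing notes, Cell Ranger 2.0.0 was used and the builds GRCm38.p3 and mm10 were named without a role. Nothing in the labels describes how cells were called or libraries merged.

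Barcodes passed with 500 or more genes and no more than 10% mitochondrial UMIs, and 15 and 11 doublets marked by Scrublet (expected rate 1.5%) were removed. Counts were scaled to 10000 per cell, 2000 variable genes (without the 10 members and without list genes that were not markers) gave 30 components, and 15 neighbours and Leiden resolution 1 gave the clusters. Clustering ran in scanpy 1.11.5 on anndata 0.12.19 with leidenalg 0.10.2 over igraph 0.11.9 (seed 1), intervals in scipy 1.17.1, and the tables and plots in pandas 2.3.3, matplotlib 3.10.9 and numpy 2.4.6 under Python 3.11.15. Classes with 3 or more markers past 1.5-fold in a cluster were ranked by their markers' mean log2 fold (10 CPM added), and the first gave the name. A first rule without that condition left clusters 1, 2 and 7 unnamed, and it was changed after the clusters had been seen. In cluster 1 the endothelial list (mean 0.863, too few markers) stood above the activated one (0.826), and in cluster 7 the dividing list (0.252) above the activated one (0.123).

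Levels are CPM of summed UMIs with exact Poisson intervals. Ratios have exact conditional binomial intervals and needed 20 UMIs on both sides together, and shares have Clopper-Pearson intervals. The ratio and interval steps were checked on simulated data. Median depth was 4463 and 5763 UMIs per barcode, and counting error alone sets the intervals. All 10 members are named. In each pathway list the 2 highest and 2 lowest mean log2 ratios of dividing to astrocyte-like cells (at least 50 UMIs in each library) are named, and for each member with at least 200 UMIs in each library the 3 genes most like it, over clusters of at least 30 cells (1 such gene is not reported here). Members and lists were chosen with earlier results of these data known, and the early genes and the motif letters after the data had been seen. Positions are from GENCODE annotation and promoter sequences from RefSeq. Alternatives were the cell filter, doublets, clustering resolution, scaling, thinning, the fold limit and leaving out clusters.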

Additional observations from a re-analysis of the deposited data

Results flagged for a closer look

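Of the 10 genes, 2 moved in opposite directions between the libraries in different cell classes, with intervals clear of 1 on both sides. Differences between the classes were not tested, since there was 1 library per age.

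For Cdk6 the log2 ratio of library 2 over library 1 reached 1.16 in neuroblasts and 0.74 in astrocyte-like cells and was -0.37 in dividing cells. The astrocyte-like value changed sign with the stricter cell filter (-0.32), with doublets kept (-0.20) and at resolution 0.5 (-0.17). Within dividing clusters 5 and 11 Cdk6 was higher in library 2, against the direction of the class. Cluster 13 carried the neuroblast value, at 363 CPM in library 2 against 149 CPM in library 1.

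For Ccnd2 the log2 ratio of library 2 over library 1 was 0.21 in neuroblasts, 0.12 in activated cells and 0.08 in dividing cells, and -0.26 in astrocyte-like cells. Within clusters, Ccnd2 was higher in library 1 in 9 of 13 (5 with an interval clear of 1) and higher in library 2 in 4 (all 4 clear of 1). In all 4 activated clusters it was higher in library 1 (1.12-fold, 1.08-fold, 1.02-fold and 1.19-fold in clusters 1, 4, 7 and 10, with 3 intervals clear of 1), against the direction of the activated class, whose cluster mix differed between libraries. Among neuroblasts it was 1759 against 2382 CPM in cluster 8, 6248 against 6737 CPM in cluster 13 and 5551 against 5272 CPM in cluster 6.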

How the results depend on the processing

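No paired analysis was possible because each age had 1 library, which gives fewer than 2 pairs. Of 181 gene ratios recomputed under 12 settings, 1791 of 2172 values kept their direction and stayed within the interval, 376 moved beyond it in the same direction and 5 changed sign. The changes of sign were those of Cdk6 between libraries in astrocyte-like cells, with log2 ratios of -0.32 (at least 1000 genes and at most 5% mitochondrial), -0.20 (doublets kept) and -0.17 (resolution 0.5) against 0.74, of Cdk6 in neuroblasts over astrocyte-like cells of library 1, -0.19 at resolution 0.5, and of Sesn1 in dividing over astrocyte-like cells of library 1, 0.017 for UMIs per cell. The cause was not tested.

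Of 10 members, the number at least 2-fold lower in neuroblasts than in dividing cells was 3 rather than 5 under the stricter cell filter, and the number higher was 2 rather than 0 with a 1.5-fold limit and 1 without cluster 5. Neuroblasts against astrocyte-like cells had 3 rather than 5 members higher at resolution 0.5 and 3 after thinning, and 2 rather than 1 lower at resolution 0.5. Between libraries, astrocyte-like cells had 2 rather than 4 members apart after thinning, 2 with a 2-fold limit and 2 without clusters 1 and 9. Neuroblasts had 1 rather than 2 at resolution 0.5, and activated cells 4 rather than 2 without cluster 7. The other counts stayed within 1.5 times. UMIs per cell in place of CPM moved 112 of the 181 ratios. The settings that leave out clusters and the first naming rule were chosen after seeing the data. Depth limits Cdkn1c most, with 10 and 4 UMIs in astrocyte-like cells.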

Other observations

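Outside the neurogenic lineage, oligodendrocyte precursors used another D cyclin. In the 16 precursors of library 1 and 30 of library 2, Ccnd1 made up 59.3% (45.7 to 71.9) and 55.1% (45.7 to 64.3) of D cyclin UMIs, and Ccnd2 35.6% and 33.1%. Their Ccnd1 level was 556 CPM (387 to 774) and 548 CPM (423 to 698), from 35 and 65 UMIs, above the 213 CPM of the highest lineage cluster in library 1. Cdk6, in contrast, had 0 and 1 UMIs there beside 14 and 42 of Cdk4. Mature oligodendrocytes of library 1 had little of any D cyclin, with 45 Ccnd2, 8 Ccnd3 and 2 Ccnd1 UMIs over 99 cells.

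A cluster of 44 cells without a class name, all in library 2 and led by the excitatory lineage factors Eomes and Neurog2, had Cdkn2c at 252 CPM, Cdkn2d at 116 CPM, Cdk6 at 287 CPM and Ccnd2 at 2165 CPM. Among clusters of at least 30 cells in that library, its Cdkn2d level was second to that of cluster 5.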
